A study of Mus musculus with 6 samples.

Results

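Genes that carry glucose through the liver were followed in mice housed alone and in control mice. The genes comprised 17 of glucose entry and glycolysis, 7 of gluconeogenesis, 7 of the pentose phosphate pathway and 3 of fructose and galactose metabolism, 34 in all. They were chosen by name, and a gene counted as present where the platform annotation gave a probe set that symbol and no other. This held for 29 of the 34 genes, against 18194 genes with such a probe set in the whole series. Livers of male BALB/c mice aged 10 weeks gave the RNA, which was read on Affymetrix whole-genome arrays, with 3 arrays of mice isolated for 30 days and 3 of control mice. All mice entered at 4 weeks of age, 5 to a cage, with 10 days to acclimatise; isolated mice then lived 1 to a cage inside a foam plastic box with less bedding, and tap water and chow were freely available. Samples are numbered within each group in the labels, which do not say that each came from a separate mouse, so p-values measure the spread between these samples, which may be partly technical. The sources used here do not give the feeding state or the time of day at collection.

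Glycolysis splits glucose into pyruvate, and gluconeogenesis builds glucose from pyruvate, lactate and amino acids through a few steps of its own. The liver runs both: it takes up and stores sugar after a meal and releases glucose in fasting. Glucagon and glucocorticoids raise transcription of the gluconeogenic genes, and insulin lowers it. The pentose phosphate pathway branches from the first phosphorylated sugar and supplies NADPH for lipid synthesis and ribose for nucleotides.

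Signals are on the linear MAS5 scale as deposited, on which 1 probe set cannot be set against another. Of the 34 genes, Gpi1, Pfkfb1, Eno1, G6pdx and Galk1 had no probe set named for them alone and were not analysed here. Gapdh was named only on 3 Affymetrix control probe sets, which stayed out of the fit. Both probe sets of Pck2 lay below the filter, which kept the upper 50% of probe sets by mean signal. That left 27 genes tested, through 51 of the 58 probe sets that were not controls. Each gene is given by its tested probe set with the highest mean unless stated otherwise.

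G6pc and Pck1, the enzymes of the last and the first committed step of glucose production, had the lowest log2 changes of the 27 tested genes, each read on its brightest probe set, though neither passed the test. Their upstream sequences are shown because the mean signal was lower in isolated livers on each of their tested probe sets. That also held for other genes of the set, such as Pfkfb3 and Tkt. The sequences are the 250 bases before the annotated start, from RefSeq on GRCm38.p6, plus strand, chr11:101367466-101367715 for G6pc and chr2:173152823-173153072 for Pck1. Capitals mark the motif found in each.
G6pc: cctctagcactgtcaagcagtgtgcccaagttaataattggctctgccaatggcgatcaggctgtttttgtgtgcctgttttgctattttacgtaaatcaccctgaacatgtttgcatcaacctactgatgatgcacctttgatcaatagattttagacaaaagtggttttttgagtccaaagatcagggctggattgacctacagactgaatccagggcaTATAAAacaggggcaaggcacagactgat
Pck1: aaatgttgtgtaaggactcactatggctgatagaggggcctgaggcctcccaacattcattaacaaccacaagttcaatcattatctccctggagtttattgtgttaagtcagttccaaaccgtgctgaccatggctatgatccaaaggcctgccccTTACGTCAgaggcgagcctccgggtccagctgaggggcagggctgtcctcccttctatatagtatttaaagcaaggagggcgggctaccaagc
In G6pc the capitals mark TATAAA, whose first base lay 29 bases before the start. In Pck1 they mark TTACGTCA, 93 bases before the start, the core of the well known cyclic AMP response element of this promoter. That motif was added after the sequence was seen, and 0.447% of the 32851 promoters of the RefSeq table hold it on either strand in the same window.

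No gene of the set passed the test between isolated and control livers. In the limma fit over all probe sets, 0 of the 51 probe sets were called at an adjusted p under 0.05, against a background of 1.63% of the 22519 probe sets tested. By gene, 0 of 27 were called, against 1.75% of 10986 genes. At an unadjusted p under 0.05, 3 genes were higher and 3 lower in isolated livers, where 7.94% of all tested genes were higher and 4.4% lower at that level. The groups did not overlap for 3 genes that were higher and 1 that was lower, against 10.8% and 5.17% of all tested genes. The median log2 change over the 27 genes was 0.06, beside 0.05 over all tested genes, with 15 genes above 0 and 12 below. In 15 of the genes the log2 change was under 0.2 in size. Those of Pfkl, Pklr, Taldo1 and Tkt, all near 0, changed sign when each array was centred on its median.

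The precision differed between genes. The 95% interval of the change lay within 2-fold in either direction for 25 of the 27 genes and within 1.5-fold for 15. The intervals of G6pc and Rpia reached past 2-fold.

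**Figure D1:**
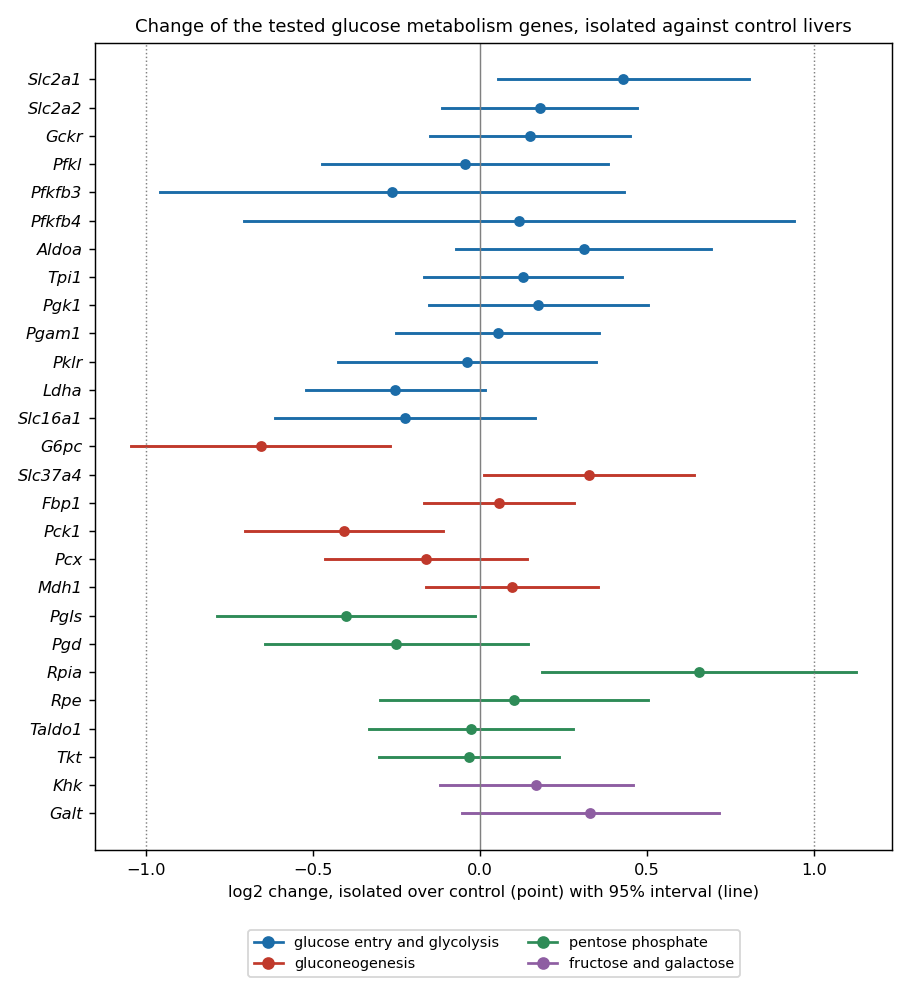
Log2 change of isolated over control livers for the 27 tested genes (points) with the 95% interval of the limma fit (lines, 3 arrays per group), coloured by pathway, with dotted lines at a 2-fold change. G6pc has the lowest point, at -0.66, and Rpia the highest, at 0.66. Both intervals pass a dotted line, and no gene was called.

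Among the gluconeogenic genes, 6 of 7 were tested, 0 were called, and the median log2 change was -0.05. Changes ran from -0.66 for G6pc to 0.33 for Slc37a4, so the 2 partners of the glucose-releasing step lay at opposite ends of the group.

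G6pc encodes the phosphatase that frees glucose from its phosphate as the last step of glucose release. Its signal was 1288, 2029 and 2695 in isolated replicates 1, 2 and 3, against 3106, 2861 and 3108 in control replicates 1, 2 and 3. Every isolated array lay below every control array, and the isolated arrays spread widely, with replicate 3 close to the controls. Over all tested genes, the median log2 difference from the control mean was 0.20 in that replicate, the highest of the 6 arrays. With each array centred on its median, the log2 change of G6pc was -0.60 (limma adjusted p 0.129). The means were 2004 ± 704 in isolated livers and 3025 ± 142 in control livers (SD, n = 3 each). The log2 change was -0.66 ± 0.19 (SE), with a 95% interval of -1.04 to -0.27 (limma adjusted p 0.0881). The adjusted p passed with only the upper 25% of probe sets tested (0.0122), with array weights (0.0172) and without isolated replicate 3 (0.00942, log2 change -0.90). Without isolated replicate 1, the lowest array, the log2 change was -0.37, with an adjusted p of 0.397. Over the alternatives that kept at least 2 arrays per group, the adjusted p ran from 0.00942 to 0.428, the highest without the intensity trend.

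Pck1 encodes the cytosolic phosphoenolpyruvate carboxykinase, which commits oxaloacetate to glucose. Its brightest probe set read 3895, 4497 and 6136 in isolated replicates 1, 2 and 3, against 6459, 5819 and 6678 in controls. Isolated replicate 3 overlapped the controls and the other isolated arrays lay below them. The log2 change of this probe set was -0.41 ± 0.14 (SE; limma adjusted p 0.204), and -0.35 with each array centred on its median (0.234). The second tested probe set read 1544, 2064 and 3677 in isolated arrays, against 4137, 2704 and 3984 in controls. It had a log2 change of -0.64 (limma adjusted p 0.194), and here too isolated replicate 3 stood within the range of the controls. Without isolated replicate 3 both probe sets were called, with adjusted p of 0.0407 (log2 change -0.59) and 0.00736 (-0.99). Without isolated replicate 1 the changes were -0.26 and -0.36, with adjusted p of 0.612 and 0.561. Without control replicate 2 the second was called at 0.0446, and with only the upper 25% of probe sets tested at 0.0327. Leaving out any other single array, its adjusted p was 0.311 to 0.561. The remaining probe set of Pck1, below the filter, read 0.718 to 6.79 over the 6 arrays.

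Isolated replicate 1 had the lowest signal of the 6 arrays for G6pc and for both tested Pck1 probe sets. Fat cells also express Pck1, so the signals of their markers over the same arrays are given here. Of 8 markers, 6 had a probe set named for them alone, 2 of them were tested and 0 were called. Their summed signal was 358, 545 and 738 in isolated replicates 1, 2 and 3, against 258, 363 and 334 in controls. Most of it came from the tested markers, Fabp4 and Lpl. No marker read 0 on any array. Fabp4, a fatty acid carrier that is 1 of the tested markers, read 203, 300.3 and 404 in isolated arrays, against 117, 202 and 158 in controls. Its isolated arrays all lay above the controls, though the lowest isolated and the highest control value nearly touched (202.6 and 202). The log2 change of Fabp4 was 0.90 ± 0.23 (SE; limma adjusted p 0.0578). Lpl read 134.8, 149.5 and 232 in isolated arrays, against 118, 129 and 152 in controls (limma adjusted p 0.629). Lep, which was not tested, read 0.775 to 3.08 in isolated and 0.821 to 3.31 in control arrays. Cidea, not tested either, read 12.3, 14.6 and 1.76 in isolated arrays, against 13.1, 18.3 and 3.58 in controls. Retn, also not tested, read 2.7, 20 and 42.2 in isolated arrays, against 2.4, 2.8 and 3.9 in controls. Adipoq read 3.78, 59.5 and 54.8 in isolated arrays, against 4.38, 8.48 and 15.6 in controls. The part of these markers in the G6pc and Pck1 values was not tested. In whole liver, fewer cells of a type and less RNA per cell cannot be told apart.

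**Figure D2:**
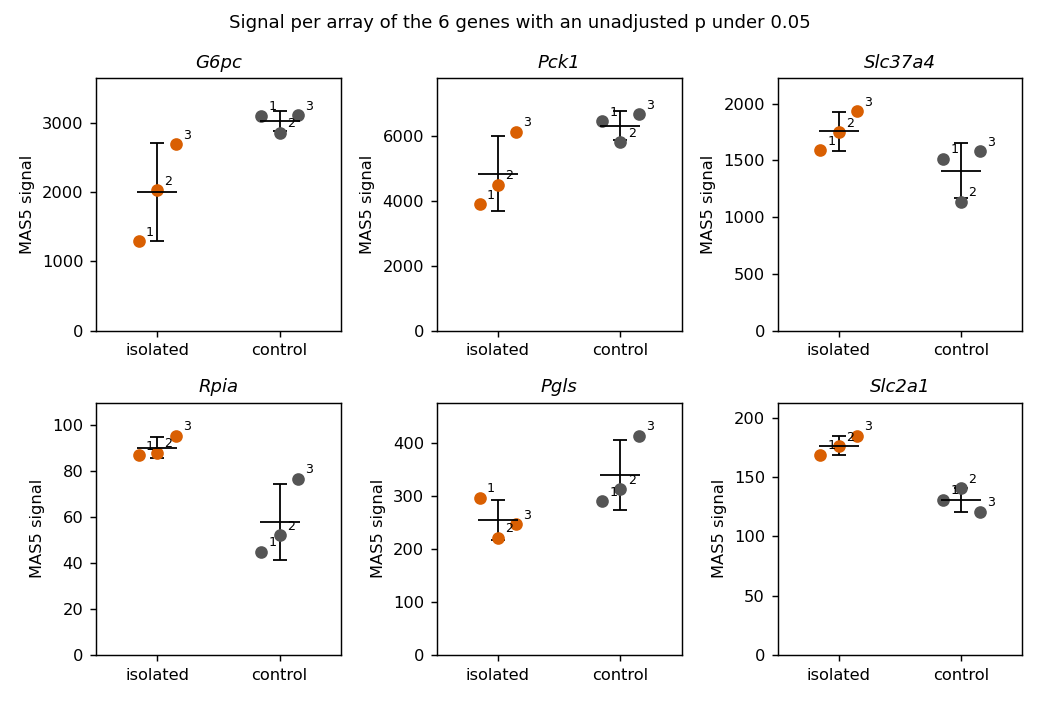
MAS5 signal of each array (points, numbered by replicate) for the 6 genes with an unadjusted p under 0.05, isolated left and control right, with the mean and SD of each group (bars, n = 3). The isolated arrays lie below every control array for G6pc and above every control array for Slc37a4, Rpia and Slc2a1. For Pck1 and Pgls the groups overlap.

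Slc37a4 encodes the transporter that brings the sugar phosphate to the G6pc enzyme inside the endoplasmic reticulum. It read 1588, 1751 and 1933 in isolated arrays, against 1514, 1136 and 1581 in controls. All isolated arrays lay above the controls, though the lowest isolated and the highest control value nearly touched. The log2 change was 0.33 ± 0.15 (SE; limma adjusted p 0.41), and 0.18 without control replicate 2 (0.933). Its promoter holds TATAAA, 32 bases before the start, as do those of G6pc, Pklr (31 bases) and Pfkfb1 at their own positions.

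The other gluconeogenic enzymes differed less. Fbp1, the fructose bisphosphatase that opposes phosphofructokinase, averaged 10060 ± 643 in isolated and 9662 ± 631 in control livers. Its 95% interval ran from 0.891-fold to 1.22-fold, so a 1.5-fold change in either direction lay outside it. Pcx, the pyruvate carboxylase of mitochondria, averaged 1044 ± 143 in isolated and 1161 ± 43.8 in control livers, a log2 change of -0.16 (limma adjusted p 0.782). A further 4 Affymetrix control probe sets carry the Pcx name. In a fit that included them, they had log2 changes of -0.09 to -0.18, with limma adjusted p of 0.844 to 0.913.

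Mdh1, the cytosolic malate dehydrogenase that turns exported malate back into oxaloacetate, was measured by 4 tested probe sets, all with log2 changes above 0, from 0.10 to 0.37. In 3 of them the isolated arrays lay above every control array. The probe set with the largest change read 6335, 5870 and 6706 in isolated arrays, against 4237, 4802 and 5638 in controls. It had a limma adjusted p of 0.176, and 0.0159 with quantile normalization, where it was the 1 call upward in the set. The probe set that represents the gene had a log2 change of 0.10 with overlapping groups.

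Pck2, the mitochondrial counterpart of Pck1, was close to the lower end of the scale. Its probe sets read 2.81, 3.83 and 15.6 on one and 9.96, 1.36 and 8.75 on the other in isolated arrays, against 21.1, 13.2 and 13.7 and then 9.23, 13.1 and 10.1 in controls. The groups overlapped on both. Without the filter, the log2 changes were -1.16 and -0.75 with limma adjusted p of 0.672 and 0.837.

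Of the 17 genes of glucose entry and glycolysis, 13 were tested and 0 were called, with a median log2 change of 0.12. Changes ran from -0.26 for Pfkfb3 to 0.43 for Slc2a1, and 8 were above 0 and 5 below.

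Slc2a1 encodes a glucose carrier found in most cells, whereas Slc2a2 encodes the main carrier of hepatocytes. Slc2a1 read 169, 176 and 185 in isolated arrays, against 131, 141 and 121 in controls. Each isolated array was above each control array, with little spread in either group. That is a log2 change of 0.43 ± 0.18 (SE; limma adjusted p 0.339). Its other probe sets had changes of 0.33, again with no overlap, and 0.19. For Slc2a2 the signal was 2911, 2766 and 3774 in isolated arrays, against 2863, 2460 and 2974 in controls. These groups overlapped, with a log2 change of 0.18 (limma adjusted p 0.724). Gckr, whose protein holds glucokinase inactive in the nucleus, averaged 1051 ± 99.7 in isolated and 945 ± 55.4 in control livers. Its log2 change was 0.15 ± 0.14 (SE), with a 95% interval that included 0.

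At the regulated step of phosphofructokinase, Pfkl, the liver-type subunit, averaged 188 ± 46.6 in isolated and 192 ± 36.3 in control livers. All 3 of its probe sets were within 0.05 of 0 on the log2 scale. Pfkfb3 and Pfkfb4 encode enzymes that make and remove the sugar bisphosphate that activates phosphofructokinase. Pfkfb3 read 72.2, 68.2 and 218 in isolated arrays, against 97.2, 102 and 192 in controls. Replicate 3 stood far above the others in both groups, and the second probe set had 20.8, 24.1 and 46 in isolated arrays, against 32.9, 49.6 and 47.1 in controls. The log2 changes of these probe sets were -0.26 and -0.54, with limma adjusted p of 0.862 and 0.573. Without isolated replicate 3 the change of the first was -0.80, with an adjusted p of 0.184, and without isolated replicate 2 it was 0.02. For Pfkfb4, a dim probe set, the signal was 21.1, 19.2 and 19.8 in isolated arrays, against 16, 26.7 and 14.2 in controls, with the widest interval of the tested genes, 0.612-fold to 1.92-fold.

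The enzymes of the common trunk of glycolysis had small changes. Aldoa, the aldolase typical of muscle and dividing cells, averaged 536 ± 110 in isolated and 431 ± 82.9 in control livers, a log2 change of 0.31 (limma adjusted p 0.584). Of its 5 probe sets, 4 had changes above 0, up to 0.42, and 1 had -0.14. Tpi1, the triose phosphate isomerase, averaged 2251 ± 368 in isolated and 2042 ± 132 in control livers, and its 3 probe sets gave log2 changes of 0.12 to 0.17. Pgk1, the first enzyme of the trunk that yields ATP, averaged 3799 ± 237 in isolated and 3451 ± 1003 in control livers, with changes of -0.12 to 0.17 over 3 probe sets. Pgam1, the mutase that follows it, averaged 1408 ± 176 in isolated and 1354 ± 141 in control livers, a log2 change of 0.05 whose interval ran from 0.841-fold to 1.28-fold. None of these genes passed the test, and all 4 intervals included 0.

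Pklr encodes the liver pyruvate kinase, whose transcription is raised by carbohydrate feeding. It averaged 346 ± 70.3 in isolated and 353 ± 48.4 in control livers, with an interval of 0.744-fold to 1.27-fold. Its 3 probe sets gave log2 changes of -0.12, -0.04 and 0.10. Isolated replicate 2 was the lowest array on all 3, at 266 on the probe set given here, against 394 and 379 in the other isolated arrays and 301 to 396 in controls. Without that replicate the log2 change was 0.14, with an adjusted p of 0.841.

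Ldha, the lactate dehydrogenase subunit, and Slc16a1, a carrier of lactate and pyruvate across the cell membrane, both had changes below 0. Ldha read 3238, 2899 and 3541 in isolated arrays, against 3412, 3960 and 4173 in controls. Isolated replicate 3 alone lay above the lowest control. The log2 change was -0.25 ± 0.13 (SE), with an interval of 0.696-fold to 1.01-fold (limma adjusted p 0.481). For Slc16a1 the means were 364 ± 58.9 in isolated and 429 ± 89.0 in control livers, a log2 change of -0.22 (limma adjusted p 0.748). Its other probe set lay below the filter, at 0.514 to 5.4 in isolated and 1.05 to 2.13 in control arrays.

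Gapdh, the glyceraldehyde phosphate dehydrogenase often taken as a reference transcript, was read by 3 Affymetrix control probe sets placed along its transcript. On the one nearest the 5′ end it read 8007, 6837 and 7670 in isolated arrays, against 6551, 6238 and 7683 in controls, and the groups overlapped on all 3. A fit that included the control probe sets gave log2 changes of 0.11 to 0.14, with limma adjusted p of 0.756 to 0.828. The same probe sets give a measure of RNA integrity. The ratio of the 3′ to the 5′ signal of Gapdh was 0.691 ± 0.00354 in isolated and 0.704 ± 0.0138 in control livers (SD, n = 3 each). For Pcx it was 4.92 ± 0.434 in isolated and 4.63 ± 0.429 in control livers. Exact two-sided permutation tests gave p of 0.2 and 0.5, or 0.4 and 0.5 after adjustment over the 2 ratios, where 0.1 is the smallest p that 3 against 3 arrays allow.

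**Figure D3:**
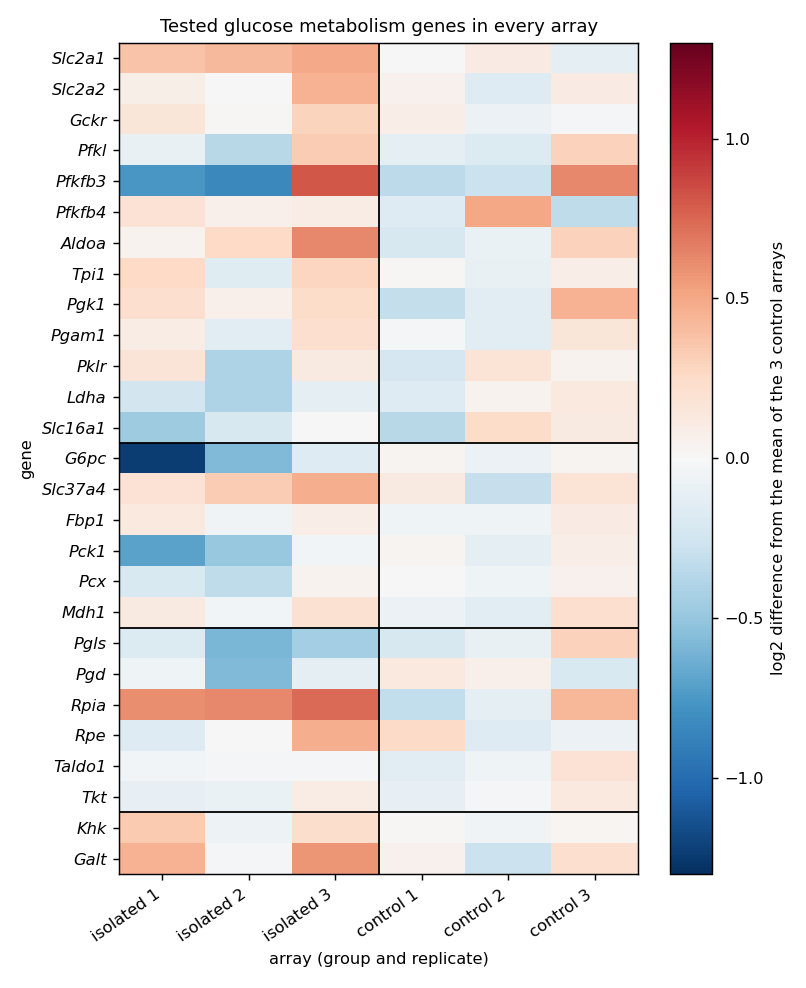
Log2 difference of each array from the mean of the 3 control arrays, for the 27 tested genes (rows, in pathway order with lines between pathways) and the 6 arrays (columns, isolated left and control right). Red is higher and blue lower. The deepest blue is G6pc in isolated replicate 1, and Pfkfb3 is blue in isolated replicates 1 and 2 and red in replicate 3 of both groups.

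In the pentose phosphate pathway 6 of 7 genes were tested, 0 were called, and the median log2 change was -0.03. At an unadjusted p under 0.05, 1 gene of its sugar-exchange arm was higher (Rpia) and 1 of its oxidative arm lower (Pgls). Of all tested genes, 7.94% were higher and 4.4% lower at that level.

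In the oxidative arm, which makes NADPH, Pgls encodes the lactonase. It read 297, 222 and 247 in isolated arrays, against 290, 313 and 414 in controls. Isolated replicate 1 and control replicate 1 overlapped by a small margin. The fitted log2 change was -0.40 ± 0.18 (SE; limma adjusted p 0.411). Without control replicate 3, the highest array, it was -0.25 (0.661). Pgd, the dehydrogenase that forms ribulose phosphate, averaged 211 ± 39.8 in isolated and 250 ± 29.3 in control livers on its brightest probe set, a log2 change of -0.25 (limma adjusted p 0.709). Its 3 other probe sets had changes of 0.10 to 0.21, so the direction for Pgd depended on the probe set.

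Rpia encodes the isomerase that turns ribulose phosphate into ribose phosphate, the sugar of nucleotides. Its signal was 87, 88.1 and 95.5 in isolated arrays, against 44.9, 52 and 76.7 in controls. All isolated arrays lay above all controls and close together, while the controls spread. The log2 change of 0.66 ± 0.23 (SE) was the highest of the set, with an interval of 1.14-fold to 2.18-fold (limma adjusted p 0.192). Over the alternatives the change ran from 0.50 to 0.87 and the adjusted p from 0.0862 to 0.742, so it was called in none of them.

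The remaining sugar-exchange enzymes were close to 0. Rpe, the epimerase of ribulose phosphate, had log2 changes of 0.10 and 0.12 on its 2 tested probe sets. Another, below the filter, read 13.4 to 17.2 in isolated and 8.32 to 33.9 in control arrays. Taldo1, the transaldolase, averaged 863 ± 5.79 in isolated and 883 ± 107 in control livers, an interval of 0.794-fold to 1.21-fold. Tkt, the transketolase, averaged 2374 ± 182 in isolated and 2429 ± 204 in control livers on its brightest probe set. On its second tested probe set it read 481, 445 and 482 in isolated arrays, against 541, 546 and 551 in controls. The groups did not overlap there, with a log2 change of -0.22 (limma adjusted p 0.674). The remaining probe sets of Tkt and Mdh1 lay below the filter, with signals of 1.01 to 15 and 1.72 to 8.94 over the 6 arrays.

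Fructose and galactose metabolism was represented by Khk and Galt, of which 0 were called. Khk, the ketohexokinase that traps fructose, read 2096, 1587 and 1942 in isolated arrays, against 1671, 1608 and 1690 in controls. Isolated replicate 2 was the lowest of all 6 arrays and the other isolated arrays were above the controls. The log2 change was 0.17 (limma adjusted p 0.744). Galt, the uridylyltransferase of galactose use, averaged 540 ± 111 in isolated and 427 ± 72.9 in control livers, a log2 change of 0.33 ± 0.18 (SE; limma adjusted p 0.549) that ran from 0.19 to 0.51 with 1 array left out.

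Several genes had more than 1 tested probe set, which allowed a check within the gene. In 8 of the 12 such genes the log2 changes of all tested probe sets had the same sign, and in 4 (Aldoa, Pgk1, Pklr and Pgd) they did not. Over the 51 tested probe sets, the groups did not overlap for 7 that were higher and 2 that were lower in isolated livers, against 9.62% and 5.79% of all probe sets. The 7 were 3 of Mdh1, 2 of Slc2a1 and those of Slc37a4 and Rpia, and the 2 were those of G6pc and Tkt.

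**Figure D4:**
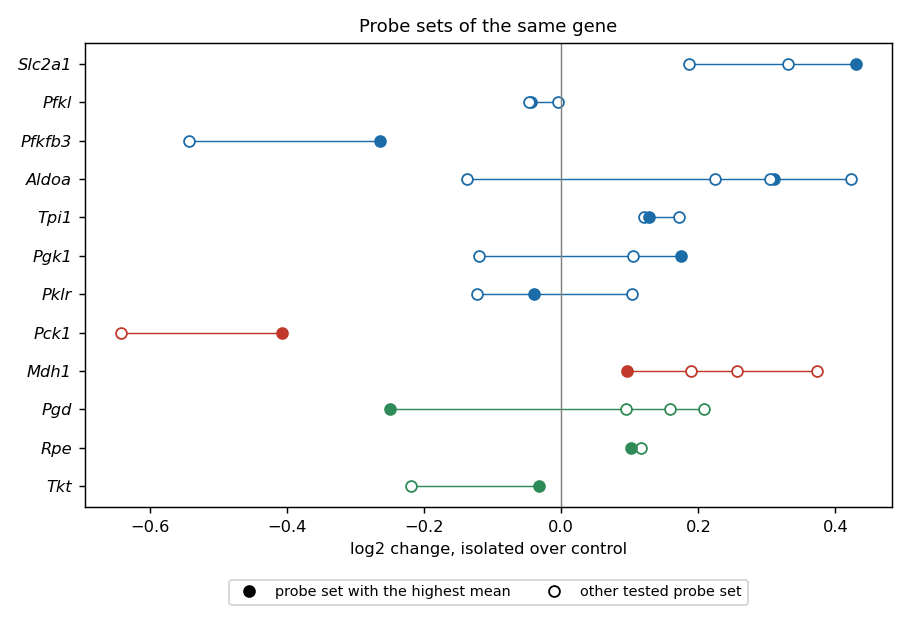
Log2 change of isolated over control livers for each tested probe set of the 12 genes with more than 1, the one with the highest mean filled and the others open (blue for glycolysis, red for gluconeogenesis, green for pentose phosphate). Both Pck1 probe sets lie left of 0 and all 4 of Mdh1 right of it, while Aldoa, Pgk1, Pklr and Pgd have points on both sides.

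The promoters of the set were searched for CACGTG, the E-box core of the carbohydrate response element bound by the sugar-responsive factor pair of Mlxipl and Mlx, and for the forkhead core GTAAACA and TATAAA. All motifs were counted on both strands in the 250 bases before the start, and no motif overlapped another in these genes. The table held 49 promoters for the 34 genes. CACGTG stood in 7 of them (14.3%), against 6.02% of all promoters, and GTAAACA in 0, against 3.17%. TATAAA stood in 4 (8.16%), against 12.4%. The genes with CACGTG were Galk1, Galt, Khk, Ldha, Pcx, Pfkfb3 and Slc16a1, and the 6 of them tested had log2 changes from -0.26 to 0.33. Matches of this kind are letters in a window and are no evidence of binding.

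Other genes of carbohydrate metabolism gave a similar picture. Of a list of 51 further enzymes, carriers and regulators, 37 were tested and 0 were called, with 24 changes above 0 and 13 below and a median of 0.08. At an unadjusted p under 0.05, 3 were higher and 3 lower, where 7.94% of all tested genes were higher and 4.4% lower. H6pd, the dehydrogenase of sugar phosphate inside the endoplasmic reticulum, which draws on the same pool as G6pc, read 544, 328 and 705 in isolated arrays, against 744, 879 and 1042 in controls. All isolated arrays lay below all controls. Its log2 change was -0.81 ± 0.21 (SE; limma adjusted p 0.0625), and it passed in 6 of 18 alternatives. With 1 array left out it passed without isolated replicate 1 (0.042) and without isolated replicate 3 (0.0107). It did not pass without isolated replicate 2, the lowest array (0.215, log2 change -0.51), or without control replicate 1 (0.0501), 2 (0.0991) or 3 (0.238). Ppargc1a, a coactivator of gluconeogenic genes, averaged 48.2 ± 4.22 in isolated and 69.1 ± 7.14 in control livers, a log2 change of -0.50 (limma adjusted p 0.375). Mlx, the partner of the sugar-responsive factor, read 246, 302 and 255 in isolated arrays, against 166, 168 and 207 in controls, with no overlap. Its log2 change was 0.57 ± 0.18 (SE; limma adjusted p 0.145), and that of a second probe set was 0.77 with 0.0634. Bpgm, the bisphosphoglycerate mutase, had a log2 change of 0.35 (limma adjusted p 0.663), and 0.15 without control replicate 2 (0.994).

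Across the series, the median signal per array ran from 18.4 to 21.9 in isolated and from 18.4 to 22.1 in control livers. Hepatocyte markers were abundant in all 6 livers: 7 of 8 had a probe set, and their summed signal was 56570 to 60890 in isolated and 57470 to 61520 in control arrays. Of the tested markers of other cells, 0 were called: 1 erythroid, 1 exocrine pancreas, 4 Kupffer, 5 endothelial, 4 stellate and 2 cholangiocyte. No skeletal muscle or lymphocyte marker passed the filter, so none was tested. The summed muscle markers, of interest for Aldoa, were 49.7, 54.0 and 87.5 in isolated arrays, against 39.0, 77.2 and 70.3 in controls, with 5 of 5 markers below the filter. Their part in the Aldoa values was not tested.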

How the data were processed

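The authors deposited 1 MAS5 signal per probe set and array, a linear intensity, per the submitters' processing notes; the sources used here give neither the scaling target nor detection calls. RNA was extracted with TRIzol and RNeasy and labelled from 2 µg, per the labels' protocols. The arrays did not share 1 trimmed mean (92 to 110), and that scale was kept. The table held 45101 probe sets, and 64 controls were set apart. A pseudocount of 2 was added before log2, so fold changes of dim probe sets are understated. Probe sets in the upper 50% by mean were tested with limma 3.58.1 in R 4.3.3 (2 groups, eBayes with an intensity trend, two-sided, Benjamini-Hochberg over all 22519, call under 0.05). Intervals are limma's 95% intervals. Each variance rests on 4 residual degrees of freedom, and the trend adds 16.1. The annotation gave 1 symbol to 34958 probe sets, several to 932 and none to 9211. The procedure was also run on simulated data with independent normal noise and no shift of whole arrays. The outcome is not given here. The genes, lists and tests were chosen with earlier results of these data known. All genes of the set were named; of the other carbohydrate genes, called ones and, per direction, the 2 with the largest change among those whose groups did not overlap. Alternatives covered the pseudocount, filter, normalization, variance model, array weights, replicate block, probe set per gene, control probe sets and arrays left out. Over probe sets, the deviations of same-numbered arrays from their group means were nearly uncorrelated (0.008, 0.044 and 0.005). Such correlations do not see a shift of a whole array. The median log2 difference from the control mean over all tested genes was 0.05, -0.07 and 0.20 in isolated replicates 1, 2 and 3. It was -0.07, -0.06 and 0.14 in control replicates 1, 2 and 3. The labels do not pair the numbers, so they were not treated as pairs. With 3 arrays per group, their number limits the precision. Figures were drawn with matplotlib 3.10.9.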

Additional observations from a re-analysis of the deposited data

How the results depend on the processing

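The absence of calls upward in the set held in all alternatives but quantile normalization, where 1 probe set of Mdh1 was called. Downward, calls appeared for G6pc and Pck1. With only the upper 25% of probe sets tested, there were 2 probe sets (1 gene by the probe set that represents it). Fewer tests are adjusted for there, and the SE was also smaller. It went from 0.1858 to 0.1665 for G6pc and from 0.1425 to 0.1268 for the brightest probe set of Pck1. With array weights there was 1 probe set (1 gene). Without isolated replicates 2 and 3, the log2 changes were -1.23 for G6pc and -0.70 for the brightest probe set of Pck1. That fit has 1 isolated array, and its spread is taken from the controls. The array has the lowest G6pc and Pck1 signals, so a larger decrease was fixed by the choice. Leaving out 1 array in turn gave 0 to 3 probe sets and 0 to 2 genes lower, with the 3 probe sets and 2 genes without isolated replicate 3 and 1 probe set without control replicate 2. Including the control probe sets of Gapdh, or of Gapdh and Pcx (chosen after seeing the data), added 0 calls. The medians of the 4 pathways, not recomputed with those control probe sets, moved by less than the spread between arrays in the other alternatives.

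Of the 27 tested genes, 18 kept the sign of their change in all alternatives run, and the other 9 are given here. With median centring, the log2 change was 0.0086 for Pfkl, 0.014 for Pklr, 0.027 for Taldo1 and 0.021 for Tkt. That of Pklr was 0.030 with array weights and 0.17 without isolated replicates 2 and 3, where Rpe had -0.16. Averaging the probe sets of Pgd gave 0.053. With 1 array left out in turn, the log2 change ran from -0.23 to 0.12 for Pfkl, from -0.80 to 0.047 for Pfkfb3, from -0.047 to 0.37 for Pfkfb4, from -0.027 to 0.15 for Pgam1, from -0.15 to 0.14 for Pklr, from -0.084 to 0.23 for Rpe, from -0.093 to 0.069 for Taldo1 and from -0.095 to 0.031 for Tkt. The cause was not tested.

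Of the other carbohydrate genes, H6pd was the 1 called lower with the upper 25% of probe sets, with a pseudocount of 16 and with array weights, and Got1 was the 1 called higher with the upper 25% and with array weights. Without isolated replicates 2 and 3, 1 was lower (G6pc3) and 1 higher (Got1), and without 1 array 0 to 1 were lower and 0 to 1 higher.

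Over all probe sets, 174 were called higher and 193 lower, or 258 and 183 with median centring, 81 and 101 without a filter, 15 and 16 without the intensity trend, 90 and 214 without isolated replicates 2 and 3, and 97 to 200 higher and 82 to 246 lower with 1 array left out. With the replicate number as a block, 265 were higher and 248 lower, while 0 of the set and, among other carbohydrate genes, 1 higher and 1 lower were called. The labels do not say that the numbers pair samples. Each same-numbered pair correlated at under 0.1 in its deviations, a measure that does not see a shift of a whole array. No detection calls were at hand, so signals near the floor, as for Pck2 and Pfkfb4, have no stated limit of detection.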
